A study of Mus musculus with 12 samples.

Results

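All 37 genes of the mouse mitochondrial chromosome were followed in RNA from the heart. They are the 13 genes for proteins, the 2 for ribosomal RNAs and the 22 for transfer RNAs, and they were chosen as every row of the count matrix whose symbol starts with mt- (37 of 27504 genes). The hearts came from C57BL/6 wild-type mice at postnatal day 45 and were sequenced as 12 libraries in 6 groups of 2. Libraries 1 to 6 carried the AngII model, in which the vasoconstrictor peptide angiotensin II is used to enlarge the heart. Libraries 7 to 12 were sham controls. In both arms mice received vehicle or the orchid glucoside gastrodin, given into the stomach over 7 days. The vehicle groups were AngII numbers 1 and 2 and sham numbers 7 and 8. The groups at 5 mg/kg/day were AngII numbers 3 and 4 and sham numbers 9 and 10, and those at 50 mg/kg/day were AngII numbers 5 and 6 and sham numbers 11 and 12. The labels give neither sex nor whether each library was a separate animal, so a p-value reflects only how these samples spread, which may be technical. The arm comparisons below average over the doses, so they are not a test of angiotensin II without drug.

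The mitochondrial genome is a small circle transcribed from both strands into long precursors. In most of the genome tRNAs stand between the other genes, and their excision releases the mRNAs and rRNAs. Every mRNA encodes a subunit of the respiratory chain or of ATP synthase, whose remaining subunits come from the nucleus, and heart muscle, which beats on aerobic ATP, is among the tissues richest in these transcripts.

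Several members share bases with a neighbour or with a nuclear copy, and the stretches that bear on the counts are shown here from the GENCODE M21 transcripts on GRCm38. Gene pairs overlapped at 9 places, by 1 to 43 bases. The longest overlap joins mt-Atp8 and mt-Atp6, whose 43 shared bases are in capitals (chrM:7897-7999, plus strand).
mt-Atp8 to mt-Atp6 overlap: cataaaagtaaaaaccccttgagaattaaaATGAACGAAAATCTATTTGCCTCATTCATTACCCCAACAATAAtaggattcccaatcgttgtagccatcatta
The serine tRNA gene mt-Ts2 (chrM:11613-11671) and the leucine tRNA gene mt-Tl2 (chrM:11671-11741) share the base in capitals. They are shown because their counts behaved differently.
mt-Ts2: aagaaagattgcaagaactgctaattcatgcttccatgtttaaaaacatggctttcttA
mt-Tl2: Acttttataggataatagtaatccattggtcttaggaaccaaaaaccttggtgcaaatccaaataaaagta
The other serine tRNA, mt-Ts1 (chrM:6870-6938, minus strand), was lower in level than every member but mt-Ts2.
mt-Ts1: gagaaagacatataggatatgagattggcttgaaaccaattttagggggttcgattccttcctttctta
A block of nuclear chromosome 1 (24611535 to 24616197, minus strand) holds 7 unprocessed pseudogenes copied from mitochondrial genes, and 5 of them match their member at every aligned base. The copies with differences are set beside their members, with the differing bases in capitals: mt-Co1 at chrM:6381-6421 and Gm29216 at chr1:24616157-24616197, then mt-Nd3 at chrM:9459-9499 and Gm28438 at chr1:24613079-24613119.
mt-Co1 window: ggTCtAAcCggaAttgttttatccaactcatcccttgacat
Gm29216 window: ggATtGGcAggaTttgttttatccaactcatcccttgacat
mt-Nd3 window: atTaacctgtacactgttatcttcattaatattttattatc
Gm28438 window: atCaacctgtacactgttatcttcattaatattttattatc
Gm29216 differs from mt-Co1 by T1056A, C1057T, A1059G, A1060G, C1062A and A1066T, and Gm28438 differs from mt-Nd3 by T3C. In each the member's base stands first, then its position from the first base of the member, then the copy's base. All 6 differences of Gm29216 lie within the window shown, at 1 end of the copy.

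The libraries held 63.5 to 78.6 M counts, and the 37 members took 63.1 to 74.5% of them. The 7 copies took a further 15.9 to 19.5%. All other genes apart from ribosomal RNA loci held 7.49 to 20.3% in the AngII arm and 6.34 to 10.4% in the sham arm. Nuclear ribosomal RNA loci (35 genes) held 10.8% of sham 50 mg number 12 and at most 0.959% of any other library. Number 12 stands apart by these loci, and results that turn on it are given with and without it. All 8 cardiomyocyte markers were detected in every library, with a summed level of 5150 to 8669 CPM (counts scaled to a common library size, by TMM) in the AngII arm and 3609 to 6578 CPM in the sham arm. Of other tissues rich in mitochondria, the 5 brown fat markers summed to 1.16 to 2.18 CPM in the AngII arm and to no more than that in the sham arm, with Adipoq at 0 throughout. In skeletal muscle's list Myh4 and Myh2 were at 0 throughout, while its summed level, 129 to 289 CPM in the AngII arm and 167 to 923.5 CPM in the sham arm, came with Acta1, which heart muscle also expresses. Acta1 was called lower in AngII and Mylpf, the other tested gene of that list, was not called.

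The level of each member per length (counts per kilobase, scaled to the same mitochondrial total in every library) was led by mt-Co1, the catalytic subunit of cytochrome c oxidase (complex IV), at 247980 ± 6644 (SD, n = 12 here and for the other levels per length). mt-Cytb, the only mitochondrially encoded subunit of complex III, followed at 116183 ± 3622. mt-Co2 stood at 102428 ± 4693 and mt-Nd1, a subunit of complex I, at 94335 ± 4716. These 4 kept their order in 12 of 12 libraries.

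The third complex IV subunit, mt-Co3, had a level per length of 73679 ± 2376. The complex I subunits mt-Nd4 and mt-Nd2 stood at 64132 ± 2471 and 63368 ± 2278 and could not be ordered, since mt-Nd4 was the higher in 6 of 12 libraries. The rest of the order was mt-Atp8 (39126 ± 2303), mt-Nd4l (27260 ± 1004), mt-Nd5 (23992 ± 1755), mt-Nd6 (19350 ± 2453), mt-Nd3 (14446 ± 2617) and mt-Atp6 (13554 ± 1253). Within it mt-Nd4l lay above mt-Nd5 in 10 of 12 libraries, and mt-Nd3 above mt-Atp6 in 6 of 12. mt-Atp8 and mt-Atp6, the ATP synthase subunits, are made from a shared mRNA, yet the deposited counts per length of mt-Atp6 were 0.353 ± 0.0542 of those of mt-Atp8 in AngII hearts and 0.343 ± 0.0285 in sham hearts (SD, n = 6 each).

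The ribosomal RNAs lay below every mRNA in mean level per length. mt-Rnr2, the large-subunit rRNA (chrM 1094 to 2675), stood at 9898 ± 3291 and mt-Rnr1, the small-subunit rRNA (chrM 70 to 1024), at 9357 ± 2721, and mt-Rnr2 was the higher per length in 8 of 12 libraries. The labels name the TruSeq RNA kit and do not say whether RNA was selected by poly(A) tail or depleted of rRNA, so the level of the rRNAs relative to the mRNAs cannot be told apart from the library method.

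The tRNA genes spanned the widest range. The highest were mt-Te for glutamate at 8105 ± 1434, mt-Tl1 for leucine at 6347 ± 1064, mt-Tc for cysteine at 5243 ± 1172, mt-Ti for isoleucine at 4957 ± 1098, mt-Tn for asparagine at 4877 ± 1079 and mt-Ty for tyrosine at 3506 ± 736 per length. At the low end mt-Tf for phenylalanine stood at 22.7 ± 9.25 and mt-Ts1 at 3.94 ± 0.971, from 9 to 19 counts a library. mt-Ts2 lay lower still in 11 libraries, with 2 counts each (median level per length 0.638 over the 12 libraries), and far higher in 1, described with its share. The tRNA genes are 59 to 75 bases long, shorter than the sequenced reads, and the sources used here do not say how the counter treated reads that reach into a neighbour. A count at a tRNA gene therefore does not tell mature tRNA from precursor.

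**Figure D1:**
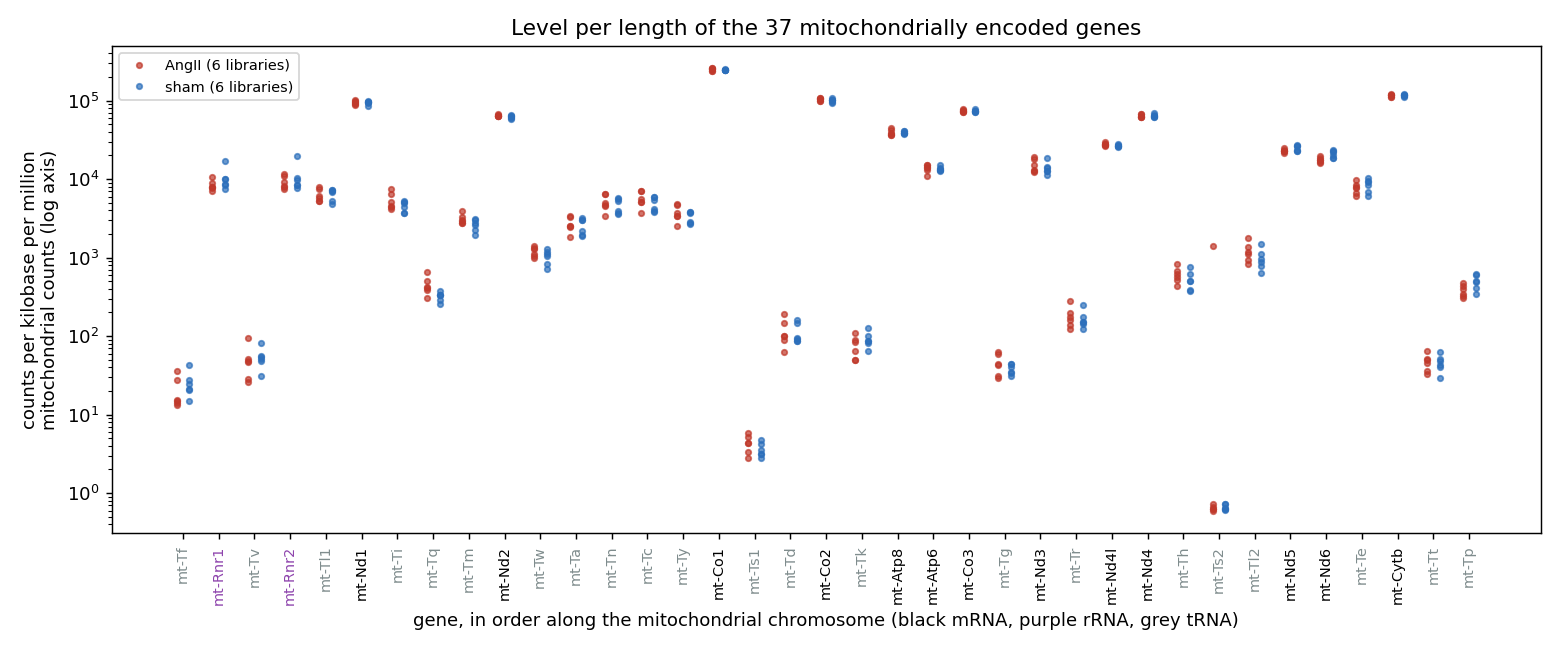
Level per length of each of the 37 genes (log axis, counts per kilobase at a common mitochondrial total) in genome order, with 1 point per library, AngII left of sham. mt-Co1 is highest at 247980 on average, mt-Ts1 averages 3.94, and mt-Ts2 lies below it in 11 libraries with a lone high point in the AngII arm.

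The 7 nuclear copies held 19.4 to 20.7% of the counts of members and copies together in AngII hearts and 19.7 to 21.0% in sham hearts. By library the copies summed to 12.8 and 14.1 M counts in AngII vehicle, 12.3 and 13.1 M in AngII 5 mg and 13.1 and 12.2 M in AngII 50 mg, against 13.3 and 13.9 M in sham vehicle, 13.5 and 11.5 M in sham 5 mg and 14.4 and 11.5 M in sham 50 mg. Only genes of the count matrix were searched for copied sequence. The stretch of chromosome 1 between Gm28661 and Gm10925 was therefore not searched for copies of mt-Tk and mt-Atp8, which lie between mt-Co2 and mt-Atp6. The sources used here do not say whether the counter split, assigned or dropped reads with more than 1 match. Counts of the members with copies, and of the copies, are thus uncertain. The ratio of a copy to its member varied among libraries by 1.96% (Gm28437) to 8.38% (Gm10925, coefficients of variation). The arms overlapped for each copy.

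For 4 copies that cover nearly the whole of their member the ratio lay close to 1. Gm28661 over mt-Co2 was 0.882 to 0.961 in AngII and 0.923 to 0.965 in sham hearts. Gm28437 over mt-Co3 was 0.920 to 0.972 in AngII and 0.944 to 0.978 in sham hearts. Gm10222 over mt-Nd4l was 0.874 to 0.934 in AngII and 0.881 to 0.929 in sham hearts, and Gm28438 over mt-Nd3 was 1.00 to 1.07 in AngII and 1.05 to 1.09 in sham hearts. The arms overlapped for each of these copies.

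The fragments had lower ratios. Gm28439, which covers 63.6% of mt-Nd4, held 0.251 to 0.291 of its counts in AngII and 0.252 to 0.287 in sham hearts. Gm29216, which covers 31.8% of mt-Co1, held 0.113 to 0.140 in AngII and 0.121 to 0.132 in sham hearts. Gm10925 departed from the rest: it covers 99.6% of mt-Atp6 without a base difference, yet held 4.80, 6.00, 4.80, 4.86, 5.10 and 4.54 times the counts of mt-Atp6 in AngII numbers 1 to 6, against 5.20, 5.06, 5.40, 4.62, 5.67 and 5.15 times in sham numbers 7 to 12. The arms overlapped here too.

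With the counts of each copy added to its member, the level per length of mt-Atp6 became 65712 ± 2116, which is 4.85 times the value without its copy, and its place moved up to the sixth of 37. mt-Co2 (158181 ± 6717) and mt-Co3 (115178 ± 3267) then followed mt-Co1 (222807 ± 6200), and mt-Cytb came next at 92851 ± 2907. The order of the mRNAs thus depends on how the copies are counted, while no call of the arm comparison does: with the copies added, 2 members were called under TMM scaling and 0 under mitochondrial scaling, as without them.

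**Figure D2:**
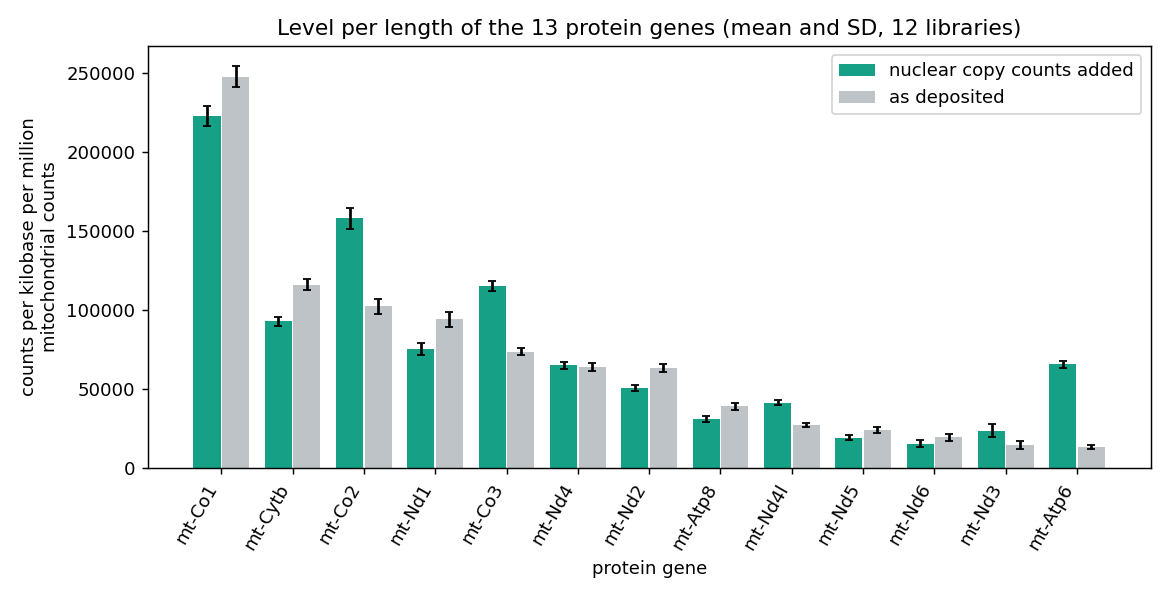
Mean level per length (linear axis, bars; error bars SD, 12 libraries) of the 13 protein genes, with the counts of the matched nuclear copy added (green) and as deposited (grey). mt-Atp6 stands at 65712 with its copy and 13554 without.

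Within the mitochondrial total the mRNAs took 96.8 to 97.9% in AngII hearts and 95.0 to 97.7% in sham hearts. The subunits of complex IV took 51.4 ± 1.06% in AngII and 50.8 ± 0.626% in sham hearts, those of complex I took 31.1 ± 0.619% in AngII and 31.2 ± 0.963% in sham hearts, and mt-Cytb took 13.3 ± 0.428% in AngII and 13.3 ± 0.441% in sham hearts (SD, n = 6 each). mt-Co1 alone took 38.5 ± 1.37% in AngII and 38.1 ± 0.607% in sham hearts. ATP synthase subunits took 1.73 ± 0.109% in AngII and 1.71 ± 0.0636% in sham hearts, or 5.09 ± 0.177% and 5.14 ± 0.112% with the copies added. The tRNAs took 0.241 to 0.401% in AngII and 0.232 to 0.337% in sham hearts. For each of these sums the arms overlapped.

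Among libraries the mRNA shares varied least, with coefficients of variation from 2.68% for mt-Co1 to 18.1% for mt-Nd3. The rRNAs varied by 29.1% (mt-Rnr1) and 33.3% (mt-Rnr2), and the tRNAs apart from mt-Ts2 by 16.8 to 40.8%. The share of counts that would have to move between genes to turn a library's profile into the median profile was 0.856 to 2.74% in AngII and 0.863 to 3.41% in sham hearts, with sham 50 mg number 12 the highest.

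Which members differed in share between AngII and sham hearts was asked of each gene by itself, with a 2-sided exact permutation test over libraries. Of 37 members 2 had an unadjusted p under 0.05, mt-Nd6 and mt-Tq (the tRNA gene was picked out after its values were seen). That is close to the 1.85 that 37 such tests would give on average with no difference, and for 0 of 37 did the arms fail to overlap. The same question was put to all genes in edgeR's quasi-likelihood fit with the mitochondrial total as library size. It called 0 of 36 members at an adjusted p under 0.05, where 21.3% of the 16723 genes tested were called, 21.2% higher and 0.173% lower. The median log2 fold change was 0.81 over all genes and 0.03 over the members. This gap is built in, because the scaling sets the members' total equal in every library. The fit asks only how members divide that total, and cannot tell whether the members as a whole changed. At an unadjusted p under 0.05 the edgeR fit held 1 member, mt-Nd6. On the same scale limma-voom and the DESeq2 Wald test also called 0 members, with 0 at an unadjusted p under 0.05.

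mt-Nd6 is the lone protein gene listed on the minus strand (chrM 13552 to 14070) and encodes a membrane subunit of complex I. Its share of the mitochondrial total was 1.02 and 0.839% in AngII vehicle, 0.852 and 0.921% in AngII 5 mg and 0.920 and 0.958% in AngII 50 mg, against 1.19 and 1.23% in sham vehicle, 1.14 and 1.05% in sham 5 mg and 0.972 and 0.957% in sham 50 mg. The vehicle and 5 mg libraries of AngII all lay below those of sham, and at 50 mg the arms overlapped. The means were 0.918 ± 0.0665% in AngII and 1.09 ± 0.115% in sham hearts (SD, n = 6 each; exact permutation p = 0.0152; p = 0.0185 with permutation within dose). The share stayed lower in AngII with each library left out in turn, with exact permutation p from 0.00649 to 0.0346. Over all genes it was not called (log2 fold change -0.24 ± 0.11 SE, edgeR adjusted p = 0.110).

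The last bases of mt-Nd5 overlap mt-Nd6 by 14 bases on the other strand. The mt-Nd5 share was 4.21 ± 0.186% in AngII and 4.54 ± 0.355% in sham hearts (exact permutation p = 0.0779). The ratio of mt-Nd6 to mt-Nd5 counts was 0.199 to 0.238 in AngII and 0.229 to 0.250 in sham hearts. The sources used here do not say whether counting used the strand. Reads of minus-strand genes therefore cannot be told apart from reads of the opposite strand. The minus-strand tRNAs summed had a share of 0.176 ± 0.0350% in AngII and 0.169 ± 0.0325% in sham hearts.

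The glutamine tRNA gene mt-Tq had a share of 0.00219 to 0.00468% (median 0.00297%) in AngII and 0.00184 to 0.00270% (median 0.00238%) in sham hearts. In AngII 5 of 6 libraries lay above the sham maximum, and number 3 did not. The ratio of means was 1.39 (exact permutation p = 0.0173; p = 0.0278 within dose), and without sham 50 mg number 11 the p was 0.0541. mt-Tq shares 3 bases with mt-Ti on the other strand and was not called over all genes (log2 fold change 0.45 ± 0.36 SE, edgeR adjusted p = 0.385).

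The rRNA share turned on 1 library. The share of mt-Rnr1 was 0.764 and 0.681% in AngII vehicle, 0.735 and 0.749% in AngII 5 mg and 1.03 and 0.843% in AngII 50 mg, against 0.949 and 0.971% in sham vehicle, 0.806 and 0.828% in sham 5 mg and 0.723 and 1.64% in sham 50 mg. The share of mt-Rnr2 was 1.25 and 1.17% in AngII vehicle, 1.44 and 1.29% in AngII 5 mg and 1.85 and 1.71% in AngII 50 mg, against 1.62 and 1.52% in sham vehicle, 1.22 and 1.31% in sham 5 mg and 1.33 and 3.08% in sham 50 mg. Number 12 of the sham 50 mg group was highest for both, and the same library held 10.8% of its counts in nuclear rRNA loci. Whether its 2 kinds of rRNA are linked was not tested.

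The difference in mean share, AngII minus sham, was -0.187 percentage points for mt-Rnr1 (exact permutation p = 0.225) and -0.230 for mt-Rnr2 (exact permutation p = 0.634). Without number 12 it was -0.0551 for mt-Rnr1 and 0.0490 for mt-Rnr2, so mt-Rnr2 turned its direction. Without sham 50 mg number 11 both rRNAs were lower in AngII under mitochondrial scaling, but number 12 alone then stood for the sham 50 mg group. That fit thus rests on the library that was highest for both rRNAs. In the vehicle groups alone both AngII libraries lay below both sham libraries for each rRNA, at a log2 fold change of -0.41 ± 0.26 SE for mt-Rnr1 (edgeR adjusted p = 0.653) and -0.38 ± 0.24 SE for mt-Rnr2 (edgeR adjusted p = 0.655), and neither passed.

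**Figure D3:**
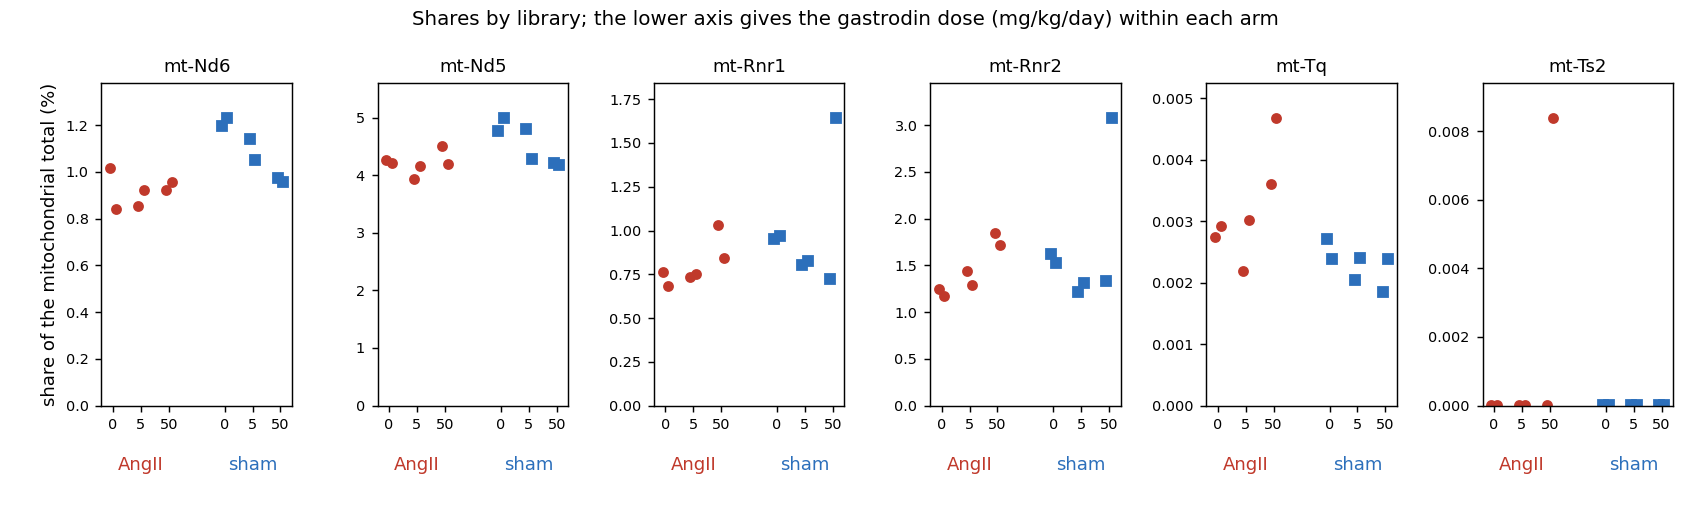
Share of the mitochondrial total (percent, linear axes from 0) in each library for 6 members, by gastrodin dose, with AngII (circles) left of sham (squares). For mt-Nd6 the AngII libraries lie below the sham libraries at vehicle and 5 mg, and the arms overlap at 50 mg. Sham 50 mg number 12 is highest for both rRNAs, and mt-Ts2 has 1 library above the rest.

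mt-Ts2 had exactly 2 counts in 11 libraries and 3999 counts in the remaining library, AngII 50 mg number 6. There its share was 0.00839%, against 4.24e-06% in the next highest AngII library and at most 4.33e-06% in sham hearts. Number 6 also had the highest share of both neighbours, at 0.00550% for mt-Th and 0.0127% for mt-Tl2. The highest shares elsewhere were 0.00505% for mt-Th and 0.0106% for mt-Tl2, both in sham 50 mg number 11. High tRNA shares in number 6 were not confined to these neighbours. Its tRNAs without mt-Ts2 summed to 0.393%, the highest of the 12 libraries. Its minus-strand tRNAs, which lie outside this stretch, were also highest, at 0.221%. The filter on low counts removed mt-Ts2 from the main fits, so 36 of 37 members were tested there, and a fit without the filter called it through this library alone.

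Relative to the other genes of the heart, the mitochondrial transcripts had negative fold changes in AngII hearts, and few of them passed. Under TMM scaling, where library sizes are set by the bulk of all genes, the log2 fold change of AngII over sham was negative for 36 of 36 members, from -0.07 for mt-Tq to -1.04 for mt-Tk, with a median of -0.55 against 0.10 over all genes tested. edgeR called 2 of 36 members, both lower, where 7.53% of all genes were called lower and 13.4% higher. They were the lysine tRNA gene mt-Tk and the valine tRNA gene mt-Tv, which were picked after their values were seen. Nuclear copies of either outside the counted genes were not searched for. At an unadjusted p under 0.05 it held 8 members.

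The level of mt-Tk was 1.75 to 3.26 CPM (median 2.77) in AngII and 2.70 to 8.68 CPM (median 5.46) in sham hearts (log2 fold change -1.04 ± 0.28 SE, edgeR adjusted p = 0.0218). The level of mt-Tv was 1.06 to 2.71 CPM (median 1.75) in AngII and 1.38 to 5.84 CPM (median 3.32) in sham hearts (log2 fold change -0.90 ± 0.29 SE, edgeR adjusted p = 0.0430). The arms overlapped for both, and sham 50 mg number 12 was the lowest sham library for both. With 1 library left out at a time, mt-Tv passed in 3 of 12 fits, those without number 4, 8 or 12. mt-Tk passed in 7 of 12 and was lost without number 3, 6, 7, 9 or 11. Within the mitochondrial total neither differed at p under 0.05, with shares 0.815 and 0.926 times those of sham (exact permutation p = 0.234 and 0.751).

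The most abundant mRNA, mt-Co1, did not pass on this scale. Its level was 127176 to 372419 CPM in AngII and 252604 to 446305 CPM in sham hearts. AngII 5 mg number 4 was the highest AngII library and also held the lowest share of other genes in its arm, 7.49%. The log2 fold change of mt-Co1 was -0.54 ± 0.43 SE (edgeR adjusted p = 0.382).

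Without number 4 edgeR called 26 of 37 members, all lower, with a median of -0.87, where 12.4% of all genes were called lower, against 7.53% with all libraries. Without numbers 4 and 12 it called 30, all lower, where 10.1% of all genes were called lower. Number 4 was the AngII library with the highest mitochondrial share, and its profile within the mitochondrial total was the closest of all 12 to the median profile, so leaving it out selects on the quantity compared. Among the called members were then mt-Nd1, mt-Nd5, mt-Nd6, mt-Atp6, mt-Atp8, mt-Co3 and both rRNAs. Leaving out other libraries gave 0 to 3 calls, and 0 without AngII 5 mg number 3, AngII 50 mg number 6, or sham numbers 7, 9 or 11. The filter was loosened where a group kept 1 library, which is why 37 members were then tested, and that library is assumed to vary like the other groups. In whole-heart RNA fewer cells of a type and less RNA per cell cannot be told apart.

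**Figure D4:**
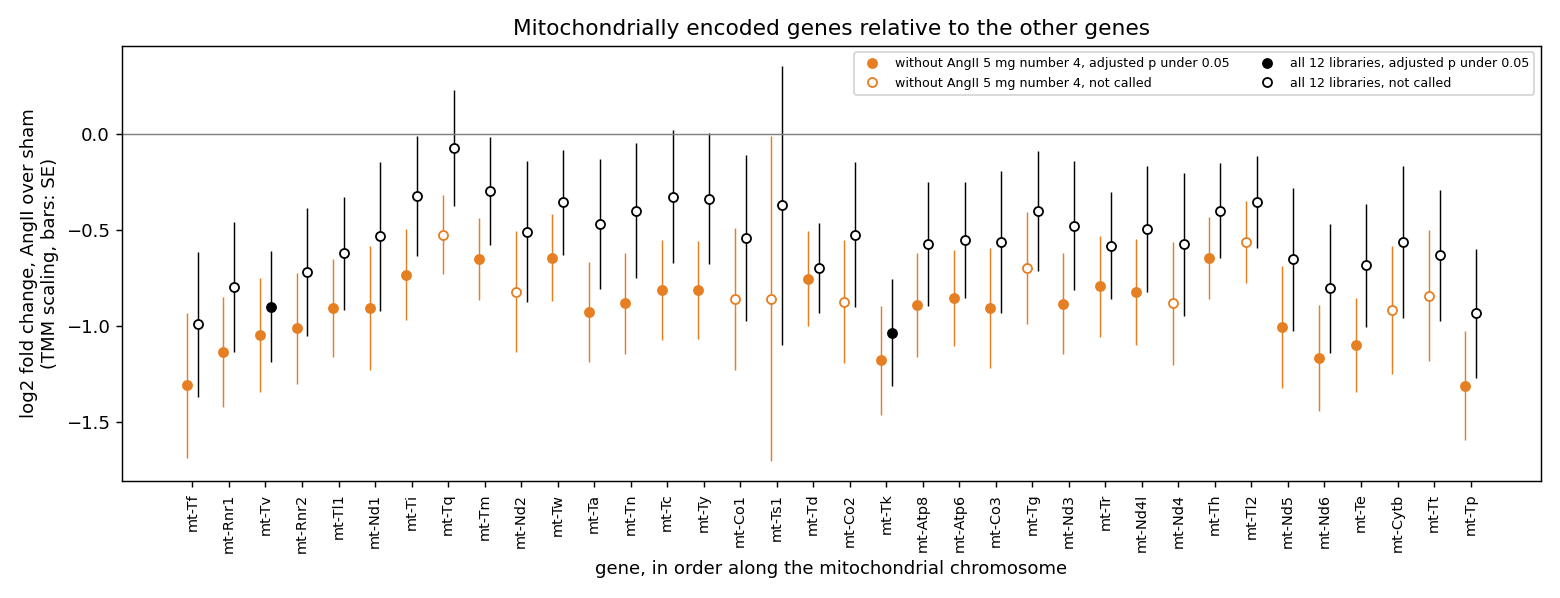
Log2 fold change of AngII over sham (TMM scaling, averaged over doses; bars SE) for 36 members in genome order, without AngII 5 mg number 4 (orange) and with all 12 libraries (black); filled points have an adjusted p under 0.05. With all libraries 2 members are filled, and without number 4 the points lie lower and 26 are filled.

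No member was called in any of the other 7 comparisons under either scaling. These were AngII against sham in vehicle, gastrodin at 5 or 50 mg against vehicle within each arm, and the 2 interactions of AngII with a dose. Under TMM scaling 0.0598% of all genes were called for the vehicle groups (0.0478% higher and 0.012% lower), 0.00598% for 5 mg and 0.012% for 50 mg in AngII, and 0.0179% for 5 mg in sham. For 50 mg in sham it was 0.149% (0.0837% higher and 0.0658% lower), and for the interactions 0.00598% at 5 mg and 0.0299% at 50 mg (0.00598% higher and 0.0239% lower). Under mitochondrial scaling the largest share was 0.0419%, for 50 mg in sham, and the others lay between 0 and 0.012%. With 2 libraries a group these fits called few genes of any kind. At an unadjusted p under 0.05 edgeR held 5 members for the vehicle groups, 2 for the interaction at 50 mg and 0 for the rest under TMM scaling, and 1 (50 mg in AngII) under mitochondrial scaling. Comparisons within an arm share their vehicle libraries.

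The median log2 fold change of the members for AngII over sham in vehicle was -0.61 under TMM scaling, against 0.06 over all genes. For gastrodin over vehicle under TMM scaling it was 0.05 at 5 mg and 0.15 at 50 mg in AngII hearts, and -0.05 at 5 mg and -0.20 at 50 mg in sham hearts. Within the mitochondrial total, mt-Nd6 differed by a log2 fold change of 0.02 ± 0.19 SE at 50 mg over vehicle in AngII and by -0.33 ± 0.19 SE in sham hearts (edgeR adjusted p = 1.00 each), and the interaction was 0.35 ± 0.27 SE (edgeR adjusted p = 1.00). mt-Rnr2 differed by 0.56 ± 0.24 SE at 50 mg over vehicle in AngII hearts (edgeR adjusted p = 1.00).

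The nuclear genes that serve the mitochondrial genome were followed in the averaged arm comparison under TMM scaling in 10 lists. Of 169 tested genes 16 rose and 4 fell, which is 11.8% called, against 20.9% of all genes. Polrmt, the RNA polymerase that transcribes the mitochondrial genome, rose, and Tfam, the factor that packs mitochondrial DNA and opens its promoters, fell. Of the 10 tested genes of mitochondrial transcription these were the 2 that were called.

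The level of Polrmt was 6.89 and 4.54 CPM in AngII vehicle, 6.85 and 3.78 CPM in AngII 5 mg and 6.58 and 5.92 CPM in AngII 50 mg, against 3.47 and 2.16 CPM in sham vehicle, 1.73 and 1.83 CPM in sham 5 mg and 1.07 and 1.91 CPM in sham 50 mg. Every AngII library lay above every sham library (log2 fold change 1.56 ± 0.24 SE; edgeR adjusted p = 0.00193). The level of Tfam was 2.31 and 2.81 CPM in AngII vehicle, 1.91 and 4.07 CPM in AngII 5 mg and 2.62 and 1.94 CPM in AngII 50 mg, against 5.53 and 4.65 CPM in sham vehicle, 5.74 and 4.18 CPM in sham 5 mg and 4.51 and 4.62 CPM in sham 50 mg. Every AngII library lay below every sham library (log2 fold change -0.91 ± 0.22 SE; edgeR adjusted p = 0.0138). Both genes were named for a small p in their list, and the share of all genes with separate arms was not counted. The separation of the arms therefore adds nothing to the 2 calls.

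Relative to the mitochondrial total Polrmt also rose (log2 fold change 2.34), while Tfam was at -0.30 and did not pass (edgeR adjusted p = 0.643). The median over all genes on that scale was 0.81. Neither gene shares exon bases with another counted gene. Mterf3, a transcription factor family member, stood at 0.51 ± 0.19 SE (edgeR adjusted p = 0.0695). The median of the transcription list was -0.13.

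Of the 10 tested replication genes Polg, the catalytic subunit of the mitochondrial DNA polymerase, rose (log2 fold change 1.16 ± 0.20 SE, edgeR adjusted p = 0.00331), while 0 fell. Rrm2b, a subunit of ribonucleotide reductase, stood at -0.78 and Dguok, which makes nucleotides in mitochondria, at -0.40, and neither passed. Polg shares exon bases with Fanci on the other strand.

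Of the 28 tested RNA processing genes 3 rose and 1 fell, with a list median of 0.40. Fastk, the founding member of a family of mitochondrial RNA-binding proteins, rose by 0.78 on the log2 scale, Fastkd5 of the same family by 1.25, and Mrm1, which methylates the large rRNA, by 0.77. Rexo2, an exonuclease that clears short RNAs, fell by 0.71. Fastkd5 passed in 8 of 20 alternatives, and with 1 library left out in those without number 4 or 10, and its counts are uncertain because it shares exon bases with Ubox5 on the same strand. Mrm1 passed in 12 of 20 and was lost without number 1, 3, 6, 7, 8, 9, 10 or 11, Rexo2 was lost without 1, 6 or 8, and Fastk without 8.

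Of the 20 tested translation genes 2 rose and 1 fell. Gfm2, a ribosome recycling factor, rose by 0.96 and Ptcd3, a protein of the mitochondrial ribosome, by 0.73 on the log2 scale, and Mrps12, a small-subunit ribosomal protein, fell by 0.68. Of the 17 tested tRNA synthetases 3 rose and 0 fell, with a list median of 0.44: Sars2 for serine by 1.03 ± 0.21 SE (edgeR adjusted p = 0.00672), Vars2 for valine by 0.92 ± 0.20 SE (0.00883) and Aars2 for alanine by 0.97 ± 0.27 SE (0.0237). Sars2 and Mrps12 are divergent neighbours on chromosome 7 (28741992 to 28753871 and 28739641 to 28741820), and they moved in opposite directions. Mrps12 passed in 10 of 20 alternatives and was lost without number 1, 3, 5, 6, 7, 9, 10 or 12, Aars2 was lost without 1, 6, 8, 9 or 12, and Ptcd3 without 8, 9 or 12.

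Of the nuclear subunits of the respiratory complexes 4 rose and 1 fell. Of 36 tested complex I genes 2 rose, Ndufb7 by 1.01 and Ndufa1 by 0.94 on the log2 scale, and Ndufa13 at 0.72 did not pass (edgeR adjusted p = 0.0532). Of 9 in complex III Uqcrc1 rose by 0.88, while Uqcrfs1 stood at -0.55 and Uqcrq at 0.63 without passing. Of 13 in complex IV Cox5a fell by 0.60, while Cox7a1 stood at 0.63 and Cox8b at 0.56 without passing. Of 15 in complex V Atp5d rose by 0.72, while Atp5g2 stood at -0.58 and Atp5j at -0.35 without passing. Atp5d passed in 9 of 20 alternatives and Ndufa1 in 10, and both were lost without any 1 of numbers 1, 3, 6, 7, 8, 9, 10, 11 or 12. Cox5a passed in 11 and was lost without number 1, 3, 5, 6, 7, 9, 11 or 12, Uqcrc1 passed in 14 and was lost without 1, 6, 8, 10, 11 or 12, and Ndufb7 was lost without 8. The list medians were 0.09, -0.07, 0.15 and -0.24 for complexes I, III, IV and V, against -0.55 for the mitochondrially encoded members on the same scale. In the vehicle groups alone they were -0.30, -0.45, -0.24 and -0.48, against -0.61 for the members and 0.06 over all genes. No gene of the 10 lists was called there.

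Of the 11 regulators of mitochondrial growth tested, Ppargc1b, a coactivator, rose by 1.16 ± 0.29 SE (edgeR adjusted p = 0.0151) and Esrra, a nuclear receptor it works with, by 0.83 ± 0.21 SE (0.0152). Pprc1 of the same coactivator family stood at 0.52 and did not pass. Esrra shares exon bases with Trmt112 on the other strand and was lost without number 1 or 8. Beside these lists the red cell markers summed to 1028 to 3347 CPM in AngII and 290 to 1741 CPM in sham hearts and 5 of 5 rose. The fibroblast markers summed to 145 to 245 CPM in AngII and 136 to 541 CPM in sham hearts and 4 of 6 fell. The endothelial markers summed to 89.0 to 195 CPM in AngII and 68.3 to 85.4 CPM in sham hearts and 3 of 6 rose. The smooth muscle markers summed to 92.8 to 303 CPM in AngII and 69.1 to 155 CPM in sham hearts and 2 of 5 rose. The macrophage markers summed to 14.2 to 41.3 CPM in AngII and 14.4 to 68.1 CPM in sham hearts and 2 of 5 fell. Of the cardiomyocyte markers 3 of 8 rose and 1 fell. The lung markers summed to 1.20 to 8.81 CPM in AngII and 0 to 1.89 CPM in sham hearts, and Scgb1a1, the 1 tested, rose. Over all genes 13.4% were called higher and 7.53% lower. In the vehicle groups alone no marker was called. The red cell list median was then -0.06, against 1.39 averaged over doses. For the other lists that moved the vehicle medians were 0.82 (endothelial), 2.52 (smooth muscle), -0.38 (fibroblast) and -0.44 (macrophage). The part of these cells in the results was not tested.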

How the data were processed

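RNA of 12 mouse heart libraries was made into libraries with the TruSeq RNA kit from 1 µg of total RNA and sequenced on a NovaSeq instrument, per the labels' protocols. The submitters' processing notes name HISAT2 2.2.1, StringTie 2.1.3 and the build GRCm38.p6. The sources used here do not give the counter, its annotation release or strand setting, or how it treated multiply matching reads. Whole-number counts per gene, not normalized, were deposited by the authors as a matrix of the series. The deposited TPM values list 36 of the 37 members (mt-Ts1 is absent) and were used to check lengths: count over TPM gave each member's annotated length, with a largest relative departure of 5.6e-10.

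Positions, lengths and sequences come from GENCODE M21 on GRCm38. A nuclear gene was called a copy when at least 50% of its 31-base words occur in a member; Gm13340, Gm13341, Gm13339 and Gm4076 share fewer and were not treated as copies. Counts of genes kept by filterByExpr (16723) were fitted in edgeR 4.0.16 (R 4.3.3) with 1 mean per group over all 12 libraries, and contrasts were tested with the quasi-likelihood F-test, 2-sided, with Benjamini-Hochberg adjustment over all genes and a threshold of 0.05. The fit was made with TMM scaling and again with the sum of the 37 members as library size. Standard errors are the absolute log2 fold change over the root of F. Shares were compared by exact permutation over libraries, whose smallest possible p is 0.00216. These p-values are unadjusted, because an adjustment over members chosen with results in view would not be a fair one. No p is given for sums. The steps were tested on simulated data. Alternatives were DESeq2 1.42.0 (size factors and Wald test), limma-voom (limma 3.58.1), no filter, scaling from other genes, other denominators, copies added, libraries 4 and 12 left out, and each library left out in turn. For the nuclear lists these were chosen after seeing the data.

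The members and lists were chosen with earlier results of these data known. Named were the 13 protein genes, the rRNAs, the 6 tRNAs with the highest share, mt-Ts2 (removed by the filter), tRNAs called within the mitochondrial total, and of each nuclear list the 3 genes with the smallest p; other members named are marked, and the low-level mt-Ts1 and mt-Tf and the overlapping mt-Tl2, mt-Th and mt-Ti and the called Mrm1 were also picked after their values were seen.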

Additional observations from a re-analysis of the deposited data

Results flagged for a closer look

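Each share and class sum was checked within each arm of 6 libraries for a library whose gap to its nearest neighbour is large against the range of the arm (88 checks; chance flags about 1 in 20 of them), and 6 were singled out. In sham 50 mg number 12 the share of mt-Rnr1 was 1.64%, with the next sham library at 0.971%, and that of mt-Rnr2 was 3.08%, with the next at 1.62%. The same library had the highest sham share of both rRNAs together, 4.72% with the next at 2.57%, and the lowest sham share of the mRNAs, 95.0% with the next at 97.1%. In AngII 50 mg number 6 the share of mt-Ts2 was 0.00839% and that of mt-Tv was 0.000661%, with the next AngII library at 0.000349% for mt-Tv.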

How the results depend on the processing

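No paired analysis was possible because the groups share no replicate numbers. Where the DESeq2 Wald test is listed under TMM scaling, it used DESeq2's own size factors, so scaling and test both changed. For AngII against sham averaged over doses, TMM scaling called 2 members with all libraries (20.9% of all genes), 7 with the DESeq2 Wald test (27.6%), 4 with limma-voom (26.9%), 11 without the filter (17.6%), 30 without libraries 4 and 12 (24.3%), and 0 to 26 with 1 library left out (9.74 to 28.3%). Under mitochondrial scaling it called 0, but 1 (mt-Ts2) without the filter or without libraries 4 and 12, and 0 to 3 with 1 library left out. For AngII against sham in vehicle TMM scaling called 0, and 1 without the filter (mt-Tv). For gastrodin 50 mg in AngII and for its interaction, either scaling called 0, and 1 without the filter; mitochondrial scaling called 1 without libraries 4 and 12, and either gave 0 to 1 with 1 library left out, as did mitochondrial scaling for 50 mg in sham. Members with a share p under 0.05 numbered 2, 3 without libraries 4 and 12 and 1 to 5 with 1 library left out.

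Of 272 alternatives for 16 share differences, 236 kept direction and side of 0.05. Directions turned as follows (AngII minus sham, percentage points): without libraries 4 and 12, mt-Rnr2 to 0.0819, mt-Nd1 to -0.0882, mt-Atp8 to 0.0119 and mt-Co3 to -0.0315; with copies added, mt-Atp6 to -0.0481 and mt-Co3 to -0.0454; with the protein gene total as denominator, mt-Co3 to -0.0139. With 1 library left out the ranges were -0.323 to 0.0490 for mt-Rnr2, -0.0307 to 0.253 for mt-Nd1, -0.0239 to 0.00774 for mt-Atp8, -0.00343 to 0.0559 for mt-Atp6, -0.0543 to 0.0815 for mt-Co3, -0.130 to 0.0852 for mt-Nd4 and -0.166 to 0.0775 for mt-Cytb; none of these genes had passed. The TMM log2 fold change of mt-Tq ranged from -0.53 to 0.17.

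Of the nuclear lists, TMM scaling called 20 genes, 35 with the DESeq2 Wald test, 25 with limma-voom, 33 without the filter, 37 without libraries 4 and 12, 47 under mitochondrial scaling and 9 to 49 with 1 library left out. With all libraries these were 11.8% of the listed genes under TMM scaling, where 20.9% of all genes were called. The same pairs were 20.7 and 27.6% with the Wald test and 14.8 and 26.9% with limma-voom. They were 19.5 and 17.6% without the filter, and 27.8 and 21.3% under mitochondrial scaling. With libraries left out, the share of all genes called also fell or rose, as given above for the same fits. The swing of the list counts was thus not particular to the listed genes. Under mitochondrial scaling the log2 fold changes of Dguok (0.29), Uqcrfs1 (0.079), Cox5a (0.077), Atp5g2 (0.015) and Atp5j (0.37) turned positive. The median over all genes went from 0.10 under TMM scaling to 0.81 there. The cause of these changes was not tested. With 2 libraries a group, small changes of single members were not detectable.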

Other observations

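Of 9 ratios of neighbouring members that were computed, the arms did not overlap for 1, which was picked after its values were seen and was not tested. The tRNA genes mt-Tc and mt-Tn lie next to each other on the minus strand, on either side of the origin of light-strand replication. Their count ratio, mt-Tc over mt-Tn, was 1.02, 1.00, 1.04, 1.04, 1.02 and 1.02 in AngII numbers 1 to 6, against 0.960, 0.950, 0.986, 0.979, 0.977 and 1.00 in sham numbers 7 to 12. The lowest AngII library (number 2) and the highest sham library (number 12) nearly met. The ratio of mt-Rnr2 to mt-Rnr1 counts, by contrast, was 1.63 to 2.03 in AngII and 1.51 to 1.87 in sham hearts and overlapped.

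Polrmt, Polg, Gfm2, Sars2, Vars2 and Ppargc1b passed in each of the 20 alternatives run for the nuclear lists, with 1 library left out and under mitochondrial scaling included. Tfam passed in 19 of 20, all but mitochondrial scaling. Under that scaling the median log2 fold change of all genes was 0.81, against 0.10 under TMM scaling. It called 21.2% of all genes higher and 0.173% lower. It therefore cannot serve as a check on a gene that rose or fell under TMM scaling.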
